A study of Homo sapiens with 3 samples.

Results

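MET, TFPI2, BCAS3, COL11A1 and CHRM3 are genes for which chimeric transcripts from the L1 antisense promoter (ASP) have been reported. They were taken by name from the deposited expression values and make up 5 of 23284 genes. Of these, 4 were above 0. RNA-seq had been performed on 293T cells, a human embryonic kidney line, that expressed dCas9-VP64 from a transfected plasmid. dCas9-VP64 is a Cas9 that binds DNA without cutting it, fused to a transcriptional activator. The mock cells received the empty guide vector, and the other cells received a guide RNA against the L1 ASP, sgL1ASP #1 or sgL1ASP #3, so that all 3 conditions shared dCas9-VP64. Each condition had 1 library, the cells were transiently transfected, the harvest time is not given in the sources used here, and no test between conditions was possible.

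L1 is a retrotransposon whose 5′ untranslated region carries a sense promoter, which makes the L1 mRNA, and the ASP, which reads outward into the neighboring DNA. Where an L1 lies in an intron opposite to the gene, transcripts from the ASP run along the gene and can be spliced to its downstream exons, giving an L1-gene chimeric RNA. L1-MET is a well-known case, in which transcription starts within an intron of MET. The question asked here was whether the total RNA of these genes was higher in cells with either guide.

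A start of the L1-MET kind was first placed in the genome, because such chimeras begin there. In GENCODE 44 lifted to GRCh37, the assembly also called hg19, MET lies at chr7:116312250-116438431 on the plus strand. The annotated transcript MET-207 starts in the intron between exons 2 and 3 of MET-201, 52.0 kb from the start of the gene. Its first exon covers 104 bases and is followed by an exon of 76 bases that MET-201 lacks, and the next exon is exon 3 of MET-201. Copies of the first exon were searched for across the genome, requiring an alignment of 83 bases or more. No repeat annotation was used, so neither this exon nor its copies were checked to be L1.

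BCAS3 and CHRM3 each held a copy on the strand of the gene that overlapped an annotated first exon, although neither BCAS3-204 nor CHRM3-201 starts in its copy. The copy in MET is the searched exon itself, so its place, strand and start were fixed in advance. In BCAS3 (chr17:58754814-59470199, plus strand) the copy was 97.1% identical to that in MET. It lies 209.7 kb from the start of the gene, and the first exon of BCAS3-204 covers 19 of its bases and starts 58 bases before it. In CHRM3 (chr1:239549865-240078752, plus strand) the copy nearer to the gene start had 95.2% identity and lies 242.6 kb into the gene. All 104 bases of that copy are inside the first exon of CHRM3-201, which starts 92 bases before it. A second CHRM3 copy on the same strand, at 257.0 kb, had 90.4% identity and overlaps no annotated first exon.

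COL11A1 and TFPI2 differed from these in where the copies lie. COL11A1 (chr1:103342023-103574428, minus strand) held 2 copies inside the gene, both on the opposite strand, at 57.5 kb from the gene start (85.6% identity) and at 175.1 kb (93.3%). Neither overlapped an annotated first exon. BCAS3 also held an opposite-strand copy of 95.2% identity, at 433.1 kb. TFPI2, a short gene of 5.4 kb (chr7:93514708-93520065, minus strand), held no copy, and the 3 copies within 300 kb of it were all on the opposite strand. The farthest of these, with 94.2% identity, lies 63 bases before the start of GNGT1-205. That transcript runs on the plus strand across TFPI2, and its exon 2 lies with all of its 44 bases opposite the last exon of TFPI2-201. RNA of this kind would be antisense to TFPI2, and the deposited values were computed in a strand-specific mode.

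**Figure D1:**
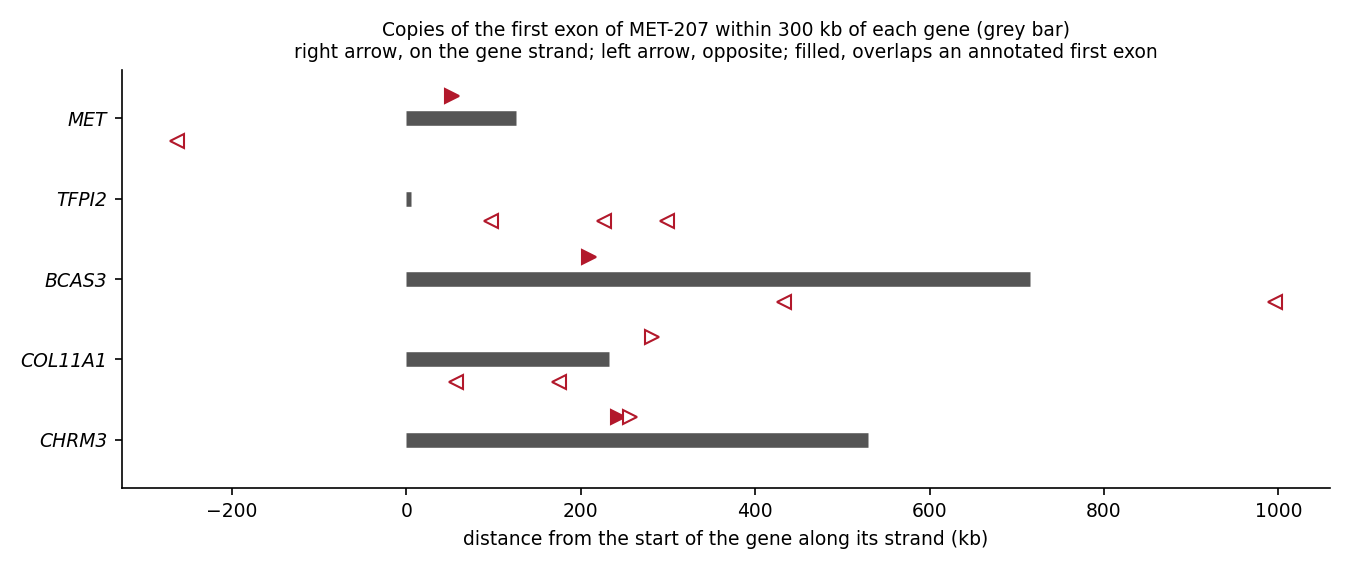
Copies of the first exon of MET-207 around each of the 5 genes; the x axis is the distance from the start of the gene along its strand in kb, grey bars are the genes, right arrows are copies on the strand of the gene, left arrows are copies on the opposite strand, and filled arrows overlap an annotated first exon. Filled arrows are seen in MET at 52.0 kb, which is the searched exon itself, in BCAS3 at 209.7 kb and in CHRM3 at 242.6 kb. TFPI2 has 0 copies inside, and both copies inside COL11A1 point against it.

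Such copies were common in the genome. The search found 6374 copies, of which 2319 were at least 90% identical to that in MET. Of 20163 protein-coding genes, 1030 (5.11%) held a copy on their own strand, and of the 3666 genes longer than 100 kb, 816 (22.3%) did. An annotated first exon that overlapped a copy was rarer, being found in 125 genes of any type, of which 45 were protein-coding (0.223% of these). Among the 45 were BCAS3, CHRM3 and MET, the last through the searched exon itself. A transcript start inside a copy was found in 17 genes, of which 6 were protein-coding, with MET counted there for the same reason.

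The libraries were shallow, and their depth set what could be seen. The study also described its sequencing as low in coverage. Estimated from genes with a single transcript, they held about 10400000 reads in mock, 10300000 with sgL1ASP #1 and 8700000 with sgL1ASP #3. Each estimate is a peak sought only in a set window of depths, so a depth outside it could not have been found. The peaks held 37 of 955, 57 of 1001 and 45 of 954 genes. The reads of MET and BCAS3, the lengths implied for CHRM3 and TFPI2 and the floor of COL11A1 all rest on these estimates. Of the markers of HEK293T cells, VIM reached 807 to 904 FPKM and KRT8 66.9 to 73.2, whereas PAX2 and EPCAM stayed under 1. Past 1.5-fold in any comparison were 0 of the 6 markers with a mean FPKM of at least 1, where 3.23% to 3.48% of all genes of that level were. With no filter, 1 of 8 markers was higher with each guide, where 11.9% and 12% of all genes were past it in either direction. This was EPCAM, at 0.252 FPKM in mock, 0.383 with sgL1ASP #1 and 0.379 with sgL1ASP #3. PTPRC, CD3E and DCN, which mark blood, T cells and fibroblasts, were listed at 0 in all 3 libraries. PECAM1, ALB and GFAP, which mark endothelium, liver and astrocytes, were low but not all at 0. GFAP was at 1.21, 0.767 and 0.915 FPKM in mock, sgL1ASP #1 and sgL1ASP #3, ALB at 0.467, 0.284 and 0.337, and PECAM1 at 0, 0.0908 and 0.135. With no filter, 2 of 2 with a ratio to mock, GFAP and ALB, were past 1.5-fold lower with sgL1ASP #1. With sgL1ASP #3 it was 0 of 2, against the same 11.9% and 12% of all genes. ALB rested on 5, 3 and 3 reads. The part of PECAM1, ALB and GFAP in the results was not tested.

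MET was the most abundant of the 5 genes. MET is the receptor tyrosine kinase for hepatocyte growth factor, and acts in cell growth and migration. Its level was 8.38 FPKM (mapped fragments scaled to how long the transcript is and how deep the library is) in mock, 8.52 with sgL1ASP #1 and 8.16 with sgL1ASP #3. For the longest coding transcript, these correspond to about 582, 586 and 474 reads. The 3 libraries thus lay within a narrow range, with sgL1ASP #1 highest and sgL1ASP #3 lowest. The FPKM ratio to mock was 1.02 with sgL1ASP #1 (95% interval 0.905 to 1.14) and 0.973 with sgL1ASP #3 (0.86 to 1.1). These intervals, and those that follow, are exact binomial intervals on the estimated reads and cover counting error only. Both held 1, and both lay inside 1.5-fold.

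BCAS3, a WD40-repeat protein that takes part in autophagy and cell migration and was first found as a gene amplified in breast cancer, had the next highest level. It was at 7.85 FPKM in mock, 7.12 with sgL1ASP #1 and 7.27 with sgL1ASP #3, or about 284, 255 and 220 reads. Both guide libraries were below mock. The ratio to mock was 0.907 with sgL1ASP #1 (0.763 to 1.08) and 0.925 with sgL1ASP #3 (0.772 to 1.11), so that counting error alone covered both differences.

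CHRM3, the muscarinic acetylcholine receptor that signals through Gq to phospholipase C, was low. Its level was 0.825 FPKM in mock, 0.798 with sgL1ASP #1 and 0.767 with sgL1ASP #3. At such levels the FPKM values stand in ratios of whole numbers, and for CHRM3 the smallest set that matched within 0.05% was 22, 21 and 17 reads. The length these reads imply, 2564 bases, is close to that of CHRM3-209, 2540 bases after 200 bases are taken off for the fragment. Double that set, 44, 42 and 34 reads, has the same ratios but implies 5127 bases, for which CHRM3-209 is again the nearest transcript. The lower read number with sgL1ASP #3 went with the lower depth of that library. The ratio to mock was 0.967 with sgL1ASP #1 (0.506 to 1.84) and 0.93 with sgL1ASP #3 (0.464 to 1.83). With the doubled read numbers, the intervals would be 0.618 to 1.51 and 0.576 to 1.49. Changes within these intervals were not detectable at this depth.

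TFPI2, a secreted Kunitz-type inhibitor of serine proteases, rested on the fewest reads of the genes detected. It was at 0.396 FPKM in mock, 0.501 with sgL1ASP #1 and 0.357 with sgL1ASP #3. The smallest whole-number set was 4, 5 and 3 reads, and its double, 8, 10 and 6, matched the values as well. The first set implies a length near that of TFPI2-206 (944 bases after the fragment is taken off) and the second a length near that of TFPI2-201 (2007 bases), so that the read number could not be settled. The difference between libraries was thus 1 or a few reads. The ratio to mock was 1.27 with sgL1ASP #1 (0.273 to 6.38) and 0.902 with sgL1ASP #3 (0.132 to 5.33), or, with the larger read numbers, 0.45 to 3.69 and 0.258 to 2.97 as the intervals.

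COL11A1, a chain of the minor fibrillar collagen of cartilage, was listed at 0 in all 3 libraries. For its longest coding transcript, 3 reads would have given 0.0405 FPKM in mock, 0.0409 with sgL1ASP #1 and 0.0484 with sgL1ASP #3, which is the level that a count of 0 allows. No ratio was therefore given for it.

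**Figure D2:**
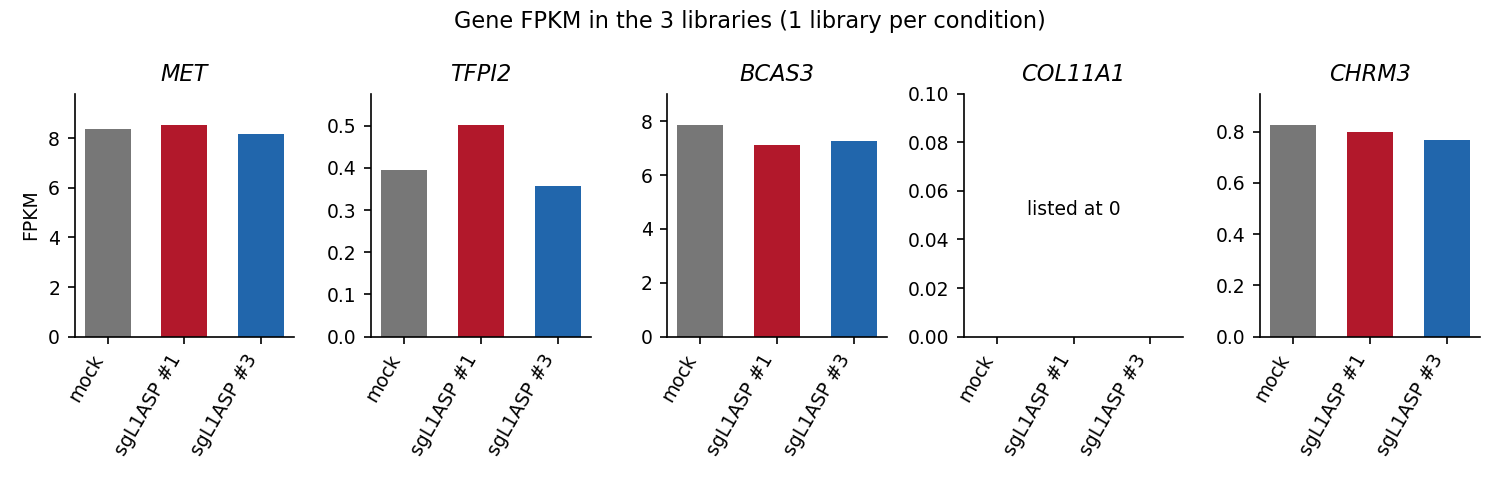
FPKM of each gene in the mock, sgL1ASP #1 and sgL1ASP #3 libraries, as bars from 0, with 1 library per condition and a y axis of its own for each gene. MET stays between 8.16 and 8.52 FPKM, BCAS3 between 7.12 and 7.85, CHRM3 between 0.767 and 0.825 and TFPI2 between 0.357 and 0.501, and COL11A1 is listed at 0.

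The order of the levels, MET above BCAS3, CHRM3, TFPI2 and COL11A1, was the same in every library. The ranges of MET and BCAS3 over the 3 libraries did not overlap, nor did those of CHRM3 and TFPI2, although FPKM of different genes depend on the transcript lengths used. MET and BCAS3 lay at the 66.2 to 66.8 and the 64.0 to 65.4 percentile of all genes, respectively, and CHRM3 and TFPI2 at the 43.5 to 43.9 and the 39.6 to 41.1 percentile.

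The study used 1.5-fold for genes higher with sgL1ASP #1 than with sgL1ASP #3 and higher with sgL1ASP #3 than in mock. Here each comparison was taken alone and in either direction. Of the 4 genes with a ratio, 0 were past 1.5-fold with sgL1ASP #1 against mock, where 11.9% of all 15982 genes with a ratio were. With sgL1ASP #3 against mock, again 0 of 4 were past it, against 12% of all genes. Between sgL1ASP #1 and sgL1ASP #3 it was 0 of 4, against 11.8%. In that last comparison the ratios were 1.04 for MET (0.924 to 1.18), 1.4 for TFPI2 (0.273 to 9.04), 0.98 for BCAS3 (0.815 to 1.18) and 1.04 for CHRM3 (0.523 to 2.1). The mock library was shared by the first and the second comparison, so they were not independent. With so few genes, these counts lay near the background.

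The background depended on the level of the gene. Among genes within 2-fold of the mean FPKM of MET, 1.09% were past 1.5-fold with sgL1ASP #1 and 1.26% with sgL1ASP #3, and for BCAS3 the shares were 1.35% and 1.57%. Around CHRM3 the shares were 27.5% and 30.1%, and around TFPI2 they were 40.3% and 40.8%. A change of 1.5-fold was thus rare at the level of MET and BCAS3, and common at that of CHRM3 and TFPI2.

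**Figure D3:**
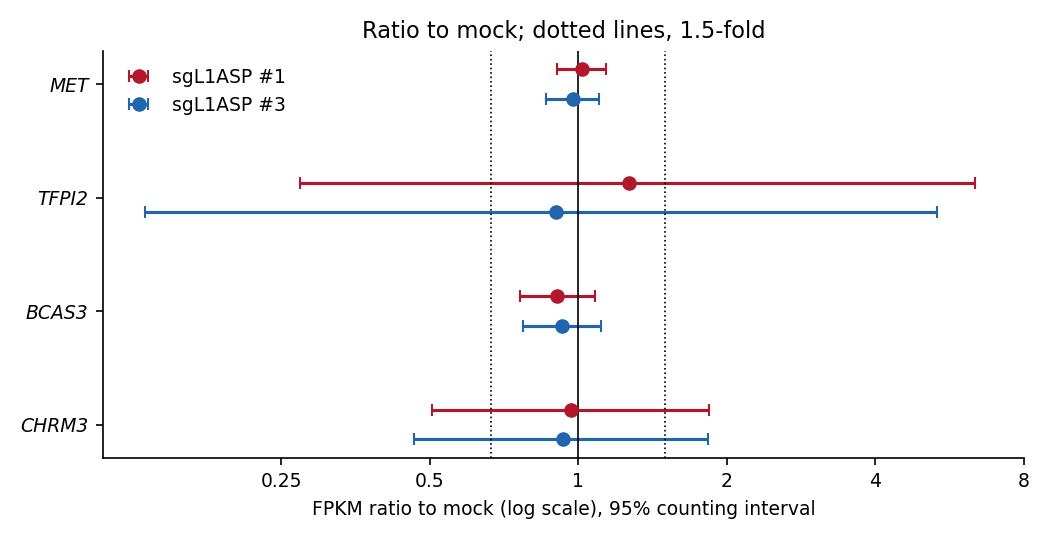
FPKM ratio to mock on a log axis for the 4 genes above 0, with sgL1ASP #1 in red and sgL1ASP #3 in blue; points are the ratios, bars their 95% counting intervals, and dotted lines mark 1.5-fold. All 8 intervals hold 1, and those of MET and BCAS3 stay inside the dotted lines.

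The genes whose changes were most like those of each gene were found among genes within 2-fold of its mean FPKM, by the distance over both log2 changes against mock. These were ZFYVE1, ZSCAN29 and MED13L for MET (distances 0.000476, 0.00184 and 0.00301, of 4713 genes). For BCAS3 they were FRS2, METTL16 and GIT2 (0.00626, 0.00662 and 0.00703, of 4616 genes). For CHRM3 they were ZNF674, C9orf93 and GNAO1 (0.0203, 0.0303 and 0.0315, of 2011 genes), and for TFPI2 FUT2, HAS2 and RHBDL2 (0.0251, 0.0344 and 0.0347, of 1679 genes). With 3 libraries, such likeness describes these values only.

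The nearest protein-coding genes on either side of each gene were then examined. Of these 10 flanking genes, 7 had a mean FPKM of at least 1, 1 was past 1.5-fold higher with sgL1ASP #1 and 0 with sgL1ASP #3, where 1.56% and 1.64% of all genes of that level were. The gene past it was GNG11, a G protein gamma subunit 31.0 kb from TFPI2, at 0.765, 1.81 and 0.767 FPKM in mock, sgL1ASP #1 and sgL1ASP #3. GNG11 reached a mean FPKM of 1 only through the sgL1ASP #1 library, in which it was high. The count of 1 therefore cannot be read against the share of all genes. These values correspond to 6, 14 and 5 reads, and the interval of the ratio with sgL1ASP #1, 2.36, ran from 0.853 to 7.5. CAPZA2, an actin-capping subunit 12.7 kb from MET, was at 28.53, 30.02 and 32.89 FPKM, and CAV1, the caveolar coat protein on the other side, was at 2.63, 2.79 and 2.98. Around BCAS3, the phosphatase gene PPM1D was at 12.7, 11.6 and 12.4 FPKM and the transcription factor gene TBX2 at 7.89, 8.81 and 9.35. RNPC3, which encodes a protein of the minor spliceosome and neighbors COL11A1, was at 42.4, 41.5 and 38.7, and FMN2, a formin gene next to CHRM3, at 1.27, 1.57 and 1.58. CALCR, OLFM3 and ZP4, the remaining neighbors of TFPI2, COL11A1 and CHRM3, were listed at 0 in all 3 libraries. COL11A1 thus lay between a gene listed at 0 and a well-expressed one.

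Genes that act with the 5 genes were examined as 5 lists, and 102 of 104 names were in the files. The others, PHAF1 and WDR45B, are further names of the listed C16orf70 and WDR45L. Of the 102, 9 were at 0 in every library and 70 had a mean FPKM of at least 1. With sgL1ASP #1 against mock, 4 of the 70 were past 1.5-fold higher and 1 lower, or 7.14%, against 3.23% of all genes of that level. With sgL1ASP #3 against mock it was 0 of 70, against 3.48%, and between the guides 1 was higher and 1 lower with sgL1ASP #1, against 3.34%. The 5 genes past it with sgL1ASP #1 are named after their values were seen. They were PTPRJ, a tyrosine phosphatase that acts on MET (1.67, 2.54 and 2.28 FPKM in mock, sgL1ASP #1 and sgL1ASP #3), the collagenase MMP1 (1.19, 1.88 and 1.17), the procollagen peptidase ADAMTS2 (1.86, 3.22 and 2.61), the phospholipase PLCB4 (1.52, 2.56 and 2.25) and TFPI, the tissue factor pathway inhibitor (3.27, 2.15 and 3.4). All 5 had low levels, and the 4 that were higher belonged to 4 different lists. MMP1 and TFPI were also the genes past 1.5-fold between the guides. None of the 70 was past it with both guides against mock. Without the filter on low values, 3 partner genes were, all of them lower. The share of all genes past it with both guides was not computed, and both comparisons share the mock library. The 3 genes are also named after their values were seen: CHRM4, described with its family, HGFAC, the HGF activator protease, and the collagen gene COL3A1. HGFAC was at 0.208, 0.105 and 0.0626 FPKM, from 4, 2 and 1 reads. COL3A1 was at 0.468, 0.292 and 0.152 FPKM, from 26, 16 and 7 reads. Its ratio to mock was 0.623 with sgL1ASP #1 (0.312 to 1.21) and 0.324 with sgL1ASP #3 (0.119 to 0.766).

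The lists moved little as a whole. Of all 12830 genes with a mean FPKM of at least 1, 6448 were higher and 6362 lower with sgL1ASP #1. With sgL1ASP #3, 6467 were higher and 6333 lower. The genes of a list are not replicates, and no direction was tested. In the HGF and MET pathway, 4 genes of 18 were higher and 14 lower with sgL1ASP #1 (median log2 change -0.044, that of all genes being 0.001) and 8 higher and 10 lower with sgL1ASP #3 (-0.013). HGF, the ligand of MET, was listed at 0 in all 3 libraries, and the most abundant gene, the phospholipase PLCG1, was at 85.1, 90.8 and 91.7 FPKM. For the Kunitz inhibitors and their proteases, with 8 genes, the medians were 0.006 and 0.019, and APLP2, a Kunitz domain protein related to the amyloid precursor, was highest at 120.3, 119.2 and 116.9 FPKM. For BCAS3 partners and phagophore proteins, with 14 genes, the medians were -0.009 and 0.023. There, C16orf70, which binds BCAS3 at the phagophore, was at 15.3, 15.8 and 16.9 FPKM, WDR45L was highest at 73.5, 75 and 72.3, and the estrogen receptor gene ESR1 was listed at 0.

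Among fibrillar collagens and their processing, 15 of 19 genes were higher and 4 lower with sgL1ASP #1 (median 0.047), and 11 were higher and 8 lower with sgL1ASP #3 (0.067). All genes of that level were split nearly evenly, as given above, and these directions were not tested either. Unlike COL11A1, its relatives COL27A1 (16.1, 16.2 and 14.8 FPKM), COL2A1 (5.52, 4.68 and 4.63), COL5A1 (2.84, 3.37 and 3.05) and COL1A1 (2.55, 1.99 and 2.46) were expressed. COL1A2 was listed at 0, and COL3A1, COL5A2, COL5A3, COL11A2 and COL24A1 had mean levels between 0.133 and 0.43 FPKM. The most abundant gene of the list was PPIB, a prolyl isomerase of the endoplasmic reticulum, at 593.1, 609.4 and 591.7 FPKM. For muscarinic receptors and Gq signaling, with 12 genes, the medians were 0.012 and -0.041, and GNA11, the G protein alpha subunit, was highest at 29.2, 30.6 and 28.4 FPKM. CHRM3 was the most abundant of its family, as CHRM1 and CHRM2 were listed at 0, CHRM4 was at 0.529, 0.23 and 0.182 FPKM (7, 3 and 2 reads), and CHRM5 at 0.0336, 0.136 and 0 (1, 4 and 0 reads). For CHRM4 the ratio to mock was 0.434 with sgL1ASP #1 (0.0724 to 1.9) and 0.344 with sgL1ASP #3 (0.0348 to 1.81).

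**Figure D4:**
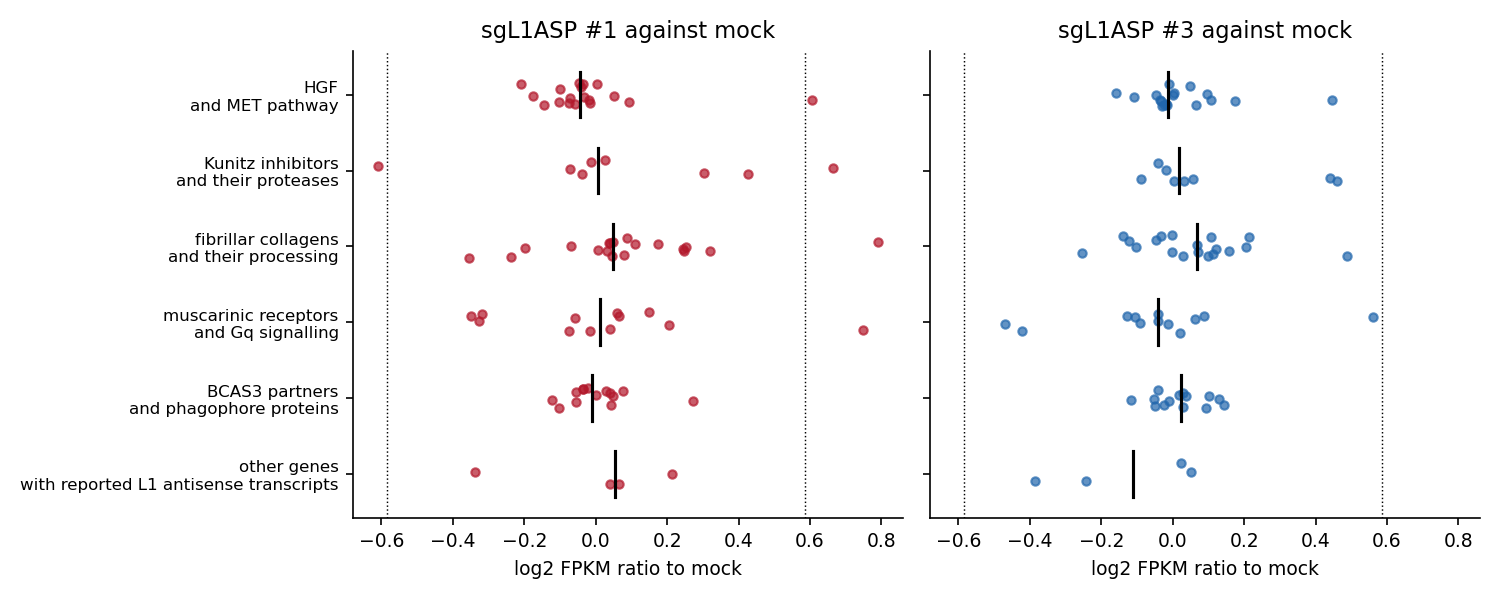
Log2 FPKM ratio to mock of genes with a mean FPKM of at least 1 in each list, for sgL1ASP #1 (left) and sgL1ASP #3 (right); each point is a gene, black bars are medians and dotted lines mark 1.5-fold. With sgL1ASP #1, 4 partner genes lie beyond the upper line and 1 beyond the lower line, and with sgL1ASP #3 0 do.

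Of 7 further names of genes with reported L1 antisense transcripts, 6 were in the files. The other, FOCAD, is a second name of KIAA1797. Of these 6 genes, 4 had a mean FPKM of at least 1. Past 1.5-fold against mock were 0 of the 4 with either guide, where 3.23% and 3.48% of all genes of that level were. With no filter, 0 of the 6 were past it with sgL1ASP #1, and 1 was higher and 1 lower with sgL1ASP #3, where 11.9% and 12% of all genes were past it in either direction. KIAA1797 was at 8.28, 8.51 and 8.4 FPKM in mock, sgL1ASP #1 and sgL1ASP #3. CHFR, a mitotic checkpoint ubiquitin ligase, was at 12.8, 13.4 and 13.3, and the chloride transporter gene CLCN5 at 2.92, 2.31 and 2.46. The ratios of CLCN5 to mock were 0.791 and 0.844, whereas those of KIAA1797 and CHFR lay between 1.02 and 1.05. In the study, both guides raised L1 ASP activity in reporter assays. Its list of upregulated genes included some with L1 ASP transcripts known from earlier work. Real-time RT-PCR in the study also found CHFR expression to be affected with sgL1ASP #1. The few genes counted here do not bear on that list as a whole. FGGY, a carbohydrate kinase gene, was at 3.11, 3.6 and 2.38, and its ratio between sgL1ASP #1 and sgL1ASP #3 was 1.51. SLCO1A2, an organic anion transporter gene, was at 0.0382, 0.055 and 0.0654 FPKM, with ratios to mock of 1.44 and 1.71. Its level was very low in every library. The smallest whole-number set that matched its values was 26, 37 and 37 reads. That set was not checked against a transcript length, and no interval was computed for SLCO1A2. GNGT1, the G protein gamma subunit gene that overlaps TFPI2 on the other strand, was at 1.13, 1.38 and 0.273 FPKM, from 5, 6 and 1 reads. Its ratio to mock was 1.22 with sgL1ASP #1 (0.309 to 5.04) and 0.241 with sgL1ASP #3 (0.00509 to 2.15). TFPI2 and GNGT1 were thus both highest with sgL1ASP #1 and lowest with sgL1ASP #3, on a few reads each.

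MET, BCAS3 and CHRM3 were last set beside the other genes of any type with an annotated first exon that overlaps a copy, a list made after the values had been seen. Of these, 45 were in the files, 40 of them protein-coding. Among the 45, 4 were at 0 in every library and 26 had a mean FPKM of at least 1. With sgL1ASP #1, 12 were higher and 14 lower than mock (median log2 change -0.012), and with sgL1ASP #3, 13 were higher and 13 lower (-0.003). Of all genes of that level, 6448 were higher and 6362 lower with sgL1ASP #1, and 6467 and 6333 with sgL1ASP #3. MAL2, a transcytosis protein, was the 1 gene of the 26 past 1.5-fold in any comparison, being lower with sgL1ASP #1, at 1.82, 1.14 and 1.23 FPKM, where 3.23% of all genes of that level were past it. With no filter, 3 genes of 40 with a ratio were higher and 5 lower with sgL1ASP #1, and 4 were higher and 6 lower with sgL1ASP #3. Of all genes, 11.9% and 12% were past it in either direction. These shares were lower than those of the list, but apart from MAL2 its genes past 1.5-fold had mean FPKM under 1. A share of all genes at their level was not computed. Past it with both guides were LRRTM4 (0.557, 0.875 and 1.11 FPKM, from 20, 31 and 33 reads) and SP140L (1, 2 and 2 reads), both higher. CHRNB4, IL20RB and PPP1R1C were lower with both. These genes are named after their values were seen. MET and BCAS3 had log2 changes from -0.14 to 0.02, and CHRM3, whose mean FPKM was under 1, had -0.04 and -0.09. The FPKM sum all transcripts of a gene, so that MET-207, BCAS3-204 and CHRM3-201 were not measured apart from the others.

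**Figure D5:**
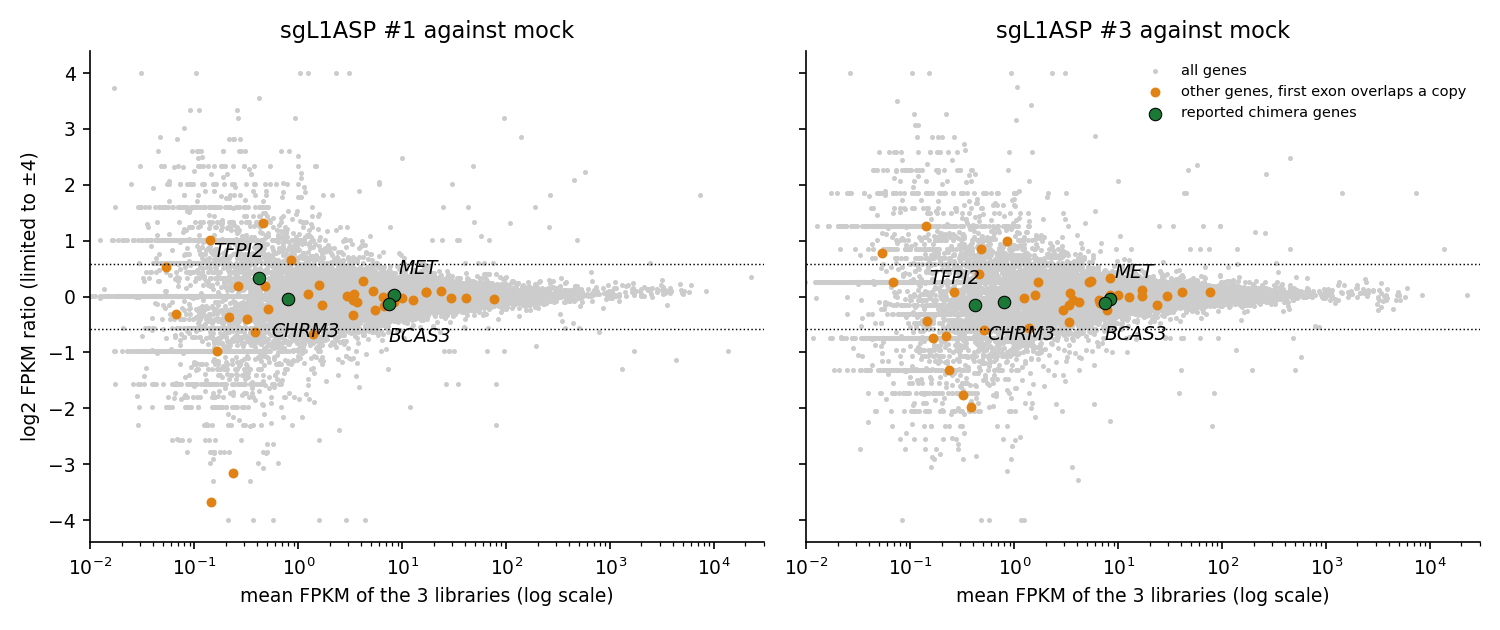
Log2 FPKM ratio to mock (y axis, limited to 4 in either direction) against the mean FPKM of the 3 libraries (log x axis) for sgL1ASP #1 (left) and sgL1ASP #3 (right); grey points are all genes, orange points the other genes with a first exon that overlaps a copy, green points MET, BCAS3, CHRM3 and TFPI2, and dotted lines mark 1.5-fold. The green points lie between the dotted lines in both panels, and the spread of the grey points widens toward low FPKM.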

How the data were processed

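The authors prepared stranded mRNA libraries, mapped the reads to hg19 with TopHat2 2.0.13, Bowtie2 2.2.3 and SAMtools 0.1.19, and deposited FPKM per gene computed by Cuffdiff of Cufflinks 2.2.1 in a strand-specific mode. The gene annotation is not given in the sources used here. Groups came from the labels. The number of unassigned value columns was 0.

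The FPKM were used without rescaling. With 1 library per condition, ratios without a pseudocount were compared with 1.5-fold and set beside the share of all genes past it, and log2 changes of single genes used a pseudocount of 0.1. The value of 1 read was 1.013 (sgL1ASP #1) and 1.2033 (sgL1ASP #3) times that in mock, from genes under 0.3 FPKM. Whole reads were the smallest set, up to 30 in mock, within 0.05%, and were found for 2047 of 2890 genes (70.8%) with mean FPKM under 1. Reads of MET and BCAS3 were estimated from the depth and the longest coding transcript less 200 bases. Counting intervals are exact Clopper-Pearson intervals (95%).

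Copies were aligned with BLAST 2.17.0 to GRCh37 with GENCODE 44. Python 3.11.15, NumPy 2.4.6, pandas 2.3.3, SciPy 1.17.1, pysam 0.24.0 and matplotlib 3.10.9 were used, and the scripts were tested on simulated data. The genes and lists were chosen with earlier results of these data known. Named genes are the 5 genes, the highest gene and close relatives in each list, any partner with mean FPKM of at least 1 past 1.5-fold with both guides (0 were), all of the further reported genes, flanking genes and the 3 most alike. Alternatives were other scalings, filters, folds and pseudocounts. Guide sequences were not used here, and the sequences of the copies are not reported here.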

Additional observations from a re-analysis of the deposited data

Results flagged for a closer look

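Some of the named genes differed from mock in opposite directions with sgL1ASP #1 and sgL1ASP #3. The difference was not tested, since each condition had 1 library. The values are the log2 FPKM ratio with sgL1ASP #1 less that with sgL1ASP #3. Among the genes with reported chimeras, the difference was 0.06 for MET and 0.49 for TFPI2, and in both the sgL1ASP #1 library was above mock and the sgL1ASP #3 library below it. The intervals of their ratios held 1. Among the further reported genes, the difference was 0.6 for FGGY and 2.34 for GNGT1, the latter from 5, 6 and 1 reads in mock, sgL1ASP #1 and sgL1ASP #3. Of the 70 partner genes with a mean FPKM of at least 1, 13 were higher with sgL1ASP #1 and lower with sgL1ASP #3, and 12 the reverse. The share of all genes that did so was not computed. Of those named in the text, the difference was 0.68 for MMP1, 0.13 for COL27A1, 0.11 for GNA11, 0.05 for WDR45L and 0.04 for PPIB. TFPI (-0.67), COL11A2 (-0.87) and the HEK293T marker KRT8 (-0.13) went the other way.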

How the results depend on the processing

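The count of MET, TFPI2, BCAS3 and CHRM3 past 1.5-fold was 0 in all 21 alternatives run, but most of these could not raise it. Pseudocounts, a 2-fold threshold and a filter can only lower a count, and counting COL11A1, at 0 everywhere, added nothing. The median ratio barely rescaled the values (factors 0.9983 to 1.0004), which left the equal sum. The log2 changes stayed within their counting intervals in all 51 alternatives, but most of these could not have left them. A pseudocount only moves a log2 change between that of the plain ratio and 0, and every interval holds both. The median ratio barely rescaled the values, and doubling the TFPI2 reads leaves its log2 change as it was. Here too only the equal sum could have moved the values out. In 1 of the 51 the sign changed. With the values rescaled to an equal sum, MET with sgL1ASP #1 against mock went from 0.02 to -0.07. That scaling moved the median of all genes to -0.092 with sgL1ASP #1 and -0.117 with sgL1ASP #3. For partner genes, the count with sgL1ASP #1 against mock, 5, became 11 of 90 with no filter on low values (5 higher, 6 lower), 3 with the equal sum (2 higher, 1 lower), 0 at a 2-fold threshold and 0 with a pseudocount of 1. With sgL1ASP #3 against mock, the count of 0 became 7 of 88 with no filter and 1 with the equal sum. Between the guides, the count of 2 became 7 of 89 with no filter, 0 at a 2-fold threshold and 0 with a pseudocount of 1. Of all genes with no filter, 11.9% were past 1.5-fold with sgL1ASP #1, 12% with sgL1ASP #3 and 11.8% between the guides. The cause of these shifts in the counts was not tested, other than that the unfiltered counts include genes with mean FPKM under 1. No paired analysis was possible because there was 1 library for each guide and for mock. The intervals cover counting error only, and the spread between cultures is unknown. At the depth of these libraries, changes of TFPI2 and CHRM3 within their intervals were not detectable.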
